A study of Homo sapiens with 12 samples.

Results

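The genes described here are 10 of the S100 calcium-binding protein genes expressed in A375 human melanoma cells: S100A1, S100A2, S100A3, S100A4, S100A6, S100A10, S100A11, S100A13, S100A16 and S100B. They were chosen by gene symbol, and each was read from the table entry that lists its symbol, out of 31585 distinct loci. All 10 were among the 15055 loci tested, those that reached an FPKM of 1 in 3 or more libraries. FPKM counts fragments per length of transcript and per mapped fragments, so that levels can be compared between genes as well as between libraries. RNA from 4 groups of A375 cells was sequenced, with 3 libraries per group and 12 in all, to find the genes that active YAP changes and whether these changes need its TEAD partners. The Control cells carried the empty retroviral vector MSCV-IRES-Hygro. The YAP-S127A cells carried the same vector with YAP in which the serine that LATS kinases phosphorylate to hold YAP in the cytoplasm is replaced by alanine. The YAP-S127A,S94A cells, titled YAP-S94A,S127A in the sample records, carried that mutant with a further change that prevents binding to TEAD transcription factors. In YAP-2SA, titled YAP-S127A,S381A, a second LATS site that marks YAP for degradation is also mutated. A condition field of the 3 YAP-2SA libraries also lists S94A, which their titles do not, and the titles were followed. All groups were stably transduced and drug-selected. The study names 3 independent RNA samples per group and does not say how many transduced lines they came from. If each group was 1 line, p-values cover the spread between its RNA samples only. The study describes the transduced A375 cells as also expressing GFP. The sample records give 24 h of culture and the study's methods 48 h.

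S100 proteins are small calcium sensors found in vertebrates. Most form dimers, and binding of calcium to their EF-hand motifs exposes a surface that grips target proteins such as annexins and cytoskeletal proteins. Some members are also released from cells and act on receptors such as RAGE (gene AGER). Most S100 genes lie together on the long arm of chromosome 1, whereas S100B, the member used as an immunohistochemical and serum marker of melanoma and glial cells, lies on chromosome 21.

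Promoter sequence was examined because YAP has no DNA-binding domain and acts through partners, chiefly TEAD proteins, which bind the MCAT element with core GGAATG, often near AP-1 sites (TGANTCA). The promoters came from RefSeq (assembly GRCh38.p14), each running from 250 bases before to shortly after the start of transcription, and the windows printed were placed on GRCh37, the assembly of the deposited table, by exact match. The table held 13 promoters for 9 of the 10 genes, S100B being the gene without an entry. Both strands were searched. GGAATG was found in 2 promoters, both of S100A16, compared with 14% of the 35116 promoters in the table. TGANTCA, which reads the same on both strands, was found in 1 promoter each of S100A2 and S100A3, compared with 7.71% of all promoters. The SOX core ACAATG or ACAAAG was found in none of the 13, compared with 24.5% of all. The windows of 30 bases that hold a match are shown 5′ to 3′ on the strand of the gene, with the motif in capitals, since these are the promoters in which a match was found.
S100A16, first promoter, chr1:153585834-153585863, minus strand, motif starting at −247: cctGGAATGttaactgaacttgtctgttgg
S100A16, second promoter, chr1:153581798-153581827, minus strand, in an S100A16 exon, motif starting at 17: ggcatgggagtaGGAATGgccacaagtggc
S100A2, chr1:153538354-153538383, minus strand, motif starting at −52: ggagtgggctgTGACTCAcaggcatgtcat
S100A3, chr1:153521941-153521970, minus strand, motif starting at −225: ggaatcaggagTGAGTCActgggctagcat
A match is a run of letters and not a shown binding site, and a promoter without a match says nothing about sequence outside these windows.

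The deposited values carry no read counts, so sequencing depth is unknown. Summed FPKM per library ran from 790865 to 901558, with 20161 to 20656 loci above 0. YAP1 was at 34.1 and 33.0 FPKM in Control replicates 1 and 2 but at 172 FPKM in Control replicate 3, inside the range of 129.7 to 187 FPKM of the 9 libraries with a YAP vector. CTGF, a standard YAP target gene, was nevertheless at 12.2 to 12.7 FPKM in all 3 Control libraries and at 52.1 to 66.1 FPKM in YAP-2SA. Control replicate 3 was kept. For the S100 genes named at the start, results are also given without it where its removal mattered. For all other genes, among them the markers, binding partners, chromosome 1 neighbours and S100P, values without Control replicate 3 were not examined. Of 8 melanocyte lineage markers, SOX10, ERBB3 and MITF passed the filter and PMEL, MLANA, TYR, TYRP1 and DCT did not, the last being at 0 in Control and YAP-2SA. The summed FPKM of the 8 was 345 to 419 in Control, 283 to 356 in YAP-S127A, 376 to 405 in YAP-S127A,S94A and 44.1 to 55.6 in YAP-2SA. In Control this sum was mostly SOX10 and ERBB3 and in YAP-2SA mostly MITF. In YAP-2SA against Control 2 of the 3 tested markers were called lower, and MITF rose from a mean of 8.59 to 35.0 FPKM (1.96, adjusted p = 0.000126). Of 3 immune markers PTPRC and CD3E stayed below 0.1 FPKM in every library and the summed level, nearly all LYZ, was 14.3 to 16.8 in Control and 2.35 to 2.84 in YAP-2SA. The summed level of 2 endothelial markers was below 0.6 in every library, and that of 4 keratinocyte markers, mostly KRT10, was 23.4 to 37.0 over the 12 libraries. Among these, in YAP-2SA against Control, KRT14 fell from a mean of 6.87 to 0.434 FPKM (−2.45, adjusted p = 3.85e-07). KRT5 was at a mean of 0.0282 FPKM in Control and 1.56 FPKM in YAP-2SA. KRT5 reached an FPKM of 1 only in the YAP-2SA libraries and so passed the filter through that group alone, and its test is not given.

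In Control cells the 10 genes spanned from 26.9 to 2542 FPKM. S100A6 ranked 42 among all tested loci and made up 57.1% of the summed level of the 10. Then came S100A11 (472 ± 40.8 FPKM, SD, n = 3), S100A10 (408 ± 5.02), S100A13 (374 ± 18.7), S100A4 (326 ± 6.83), S100A16 (129 ± 11.3), S100A1 (101 ± 14), S100B (46.9 ± 5.22), S100A3 (27.6 ± 3.90) and S100A2 (26.9 ± 5.67). Among neighbours in this order, the libraries overlapped only between S100A3 and S100A2. In YAP-2SA cells the order differed: S100A6 stayed first with 48.3% of the sum, S100A10 stood above S100A11, S100A16 (278 ± 25.3 FPKM) was level with S100A4 (259 ± 8.03) with overlapping libraries, and S100A1 and S100B came last, at ranks 11184 and 14179 of the tested loci. The 10 genes together held 0.518% to 0.534% of the FPKM of a Control library and 0.406% to 0.460% of a YAP-2SA library, so that the groups did not overlap. The 3 YAP-S127A libraries held 0.467% to 0.514% and the 3 YAP-S127A,S94A libraries 0.528% to 0.546%. The plot of levels by library shows the low YAP-2SA libraries of S100A1 and S100B beside those of the other groups.

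**Figure D1:**
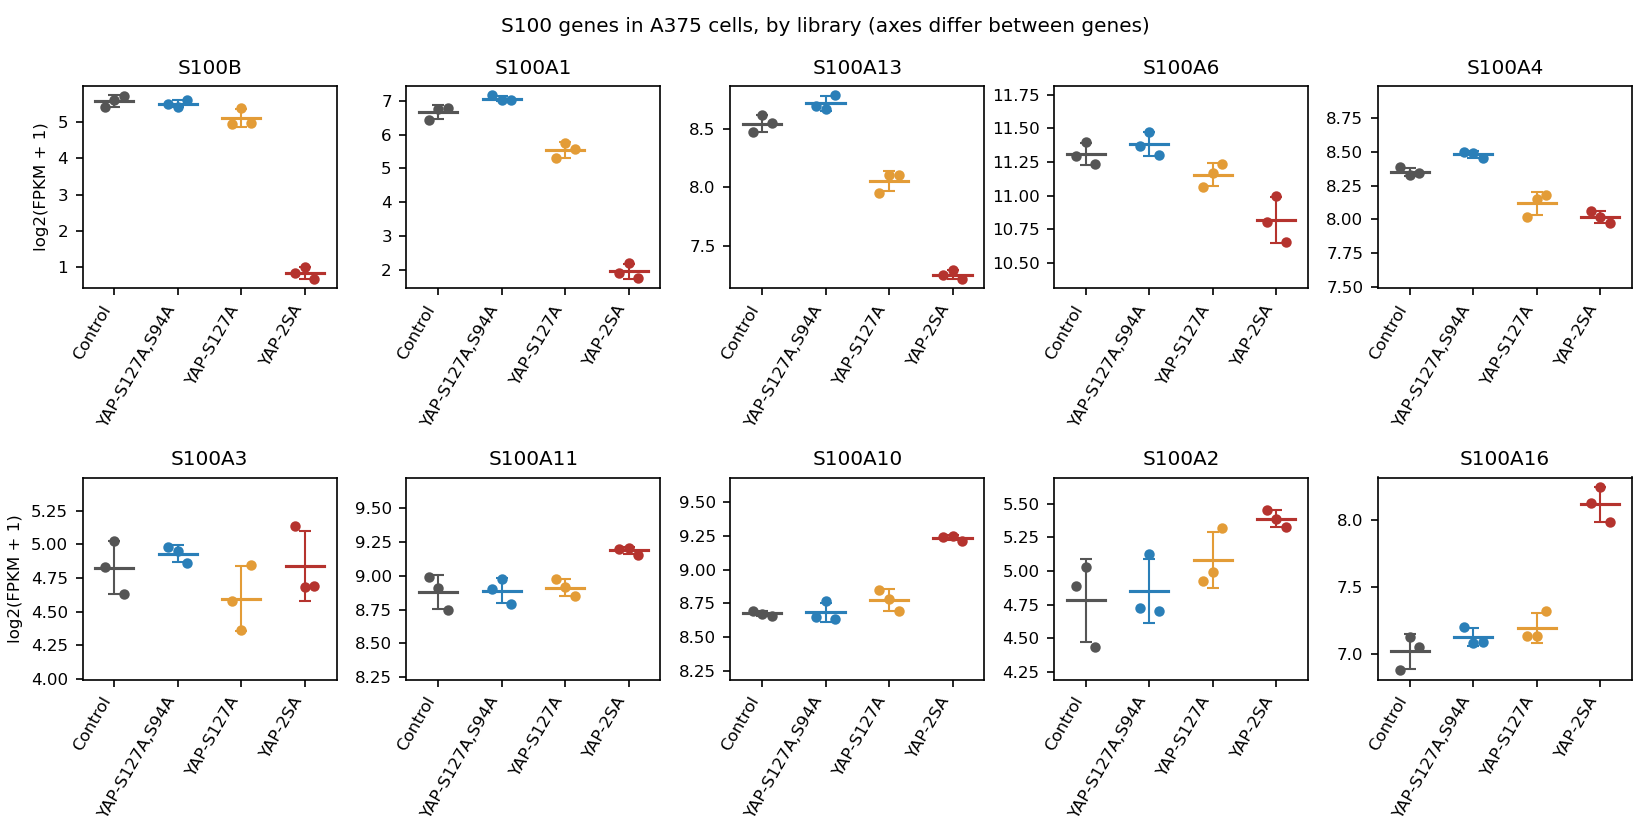
Level of each of the 10 S100 genes in every library, as log2(FPKM + 1), with 1 panel per gene and axes that differ between genes; points are libraries in the Control, YAP-S127A, YAP-S127A,S94A and YAP-2SA groups, and bars show the mean ± SD (n = 3). The 3 YAP-2SA libraries lie far below the others for S100A1 and S100B, below them for S100A13 and S100A6, and above them for S100A10, S100A11, S100A16 and S100A2.

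In YAP-2SA against Control, 9 of the 10 genes passed the test at an adjusted p under 0.05, 4 higher and 5 lower, in limma fitted to log2(FPKM + 1) with Benjamini-Hochberg adjustment over all tested loci. Of all tested loci 22.9% were called higher and 19.5% lower in this comparison, so that changed genes were common in these cells. With a ratio of mean FPKM over 2 also required, 1 gene was higher (S100A16) and 3 were lower (S100A1, S100A13 and S100B), where 7.59% and 7.86% of all loci passed. The median absolute log2 fold change of the 10 was 0.58 and that of all tested loci 0.26, while the median signed change was −0.16 and 0.01. The 9 called genes were those whose YAP-2SA and Control libraries did not overlap. The share of all tested loci without overlap was not counted, so overlap is given here and below as a description only. The 9 calls also held when Control replicate 3 was left out. A two-sided exact permutation test of 3 against 3 libraries cannot give a p below 0.1, so single genes rest on the fit across all loci. Because 1 is added to the FPKM before the log2, a weakly expressed gene shows less than its full change on this scale. Ratios of mean FPKM are therefore given beside the log2 fold changes of the 9 called genes in this comparison.

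S100B and S100A1 are the members best known from neural crest, glial and muscle cells, and they showed the largest differences of the 10. S100B was at 41.3, 47.6 and 51.7 FPKM in the Control libraries and at 0.79, 1.03 and 0.605 FPKM in the YAP-2SA libraries. Its levels were 29.996, 41.0 and 30.3 FPKM in YAP-S127A and 44.2, 41.6 and 47.5 FPKM in YAP-S127A,S94A. Every library outside YAP-2SA thus lay far above every YAP-2SA library, all of which were near or below 1 FPKM. S100B fell by 4.73 on the log2 scale (SE 0.13, adjusted p = 1.14e-09), a 58.0-fold lower mean FPKM in YAP-2SA than in Control. RNA was taken from bulk cultures, so fewer cells expressing a gene and less of its RNA per cell cannot be told apart here or below. S100A1, a calcium sensor that binds the ryanodine receptor and calcium pump of muscle, was at 84.8, 108 and 109.6 FPKM in Control and at 2.76, 3.59 and 2.37 FPKM in YAP-2SA. The YAP-S127A libraries lay between, at 38.6, 53.3 and 47.1 FPKM, and the YAP-S127A,S94A libraries were at 143, 129 and 129 FPKM. None of the 4 groups overlapped another for this gene, with the TEAD-binding mutant highest and YAP-2SA lowest. S100A1 fell by 4.71 (SE 0.15, adjusted p = 1.97e-09), a 34.7-fold lower mean. Of the 3 tested melanocyte markers, SOX10, the transcription factor of the neural crest and glial lineage, was also lower, at 234, 274 and 281 FPKM in Control and 4.53, 7.25 and 6.69 FPKM in YAP-2SA. ERBB3 was lower too, whereas MITF was higher, as given above. In YAP-S127A against Control, where S100A1 was lower, SOX10 differed by −0.23 (adjusted p = 0.456). The part of the lineage markers in the S100 changes was not tested.

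S100A13 takes part in the release of proteins that lack a signal peptide, among them FGF1 and interleukin-1 alpha. Its 3 Control libraries were at 355, 393 and 374 FPKM and its YAP-2SA libraries at 151, 155 and 148 FPKM. The YAP-S127A libraries were at 247, 274 and 274 FPKM and those of YAP-S127A,S94A at 415, 408 and 443 FPKM. As for S100A1, the 4 groups did not overlap and stood in the same order. S100A13 fell by 1.30 in YAP-2SA (SE 0.06, adjusted p = 3.47e-08), a 2.47-fold lower mean. S100A13 and S100A1 overlap on opposite strands of chromosome 1 by 3435 bases, of which 235 are exonic in both, and strandedness of the libraries is not stated, so reads from the shared bases cannot be assigned. The ratio of S100A1 to S100A13 was 0.239, 0.276 and 0.293 in Control and 0.0183, 0.0231 and 0.0161 in YAP-2SA. It was 0.156, 0.195 and 0.172 in YAP-S127A and 0.345, 0.315 and 0.291 in YAP-S127A,S94A. The pair therefore did not fall in proportion, as S100A1 dropped further than its overlapping neighbour.

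S100A4 and S100A6 are linked to cell motility and growth: S100A4 binds non-muscle myosin heavy chain IIA, and S100A6 (calcyclin) binds the calcyclin-binding protein CACYBP. The S100A4 value is that of a locus that also lists S100A5, so the level of each alone is uncertain. This locus was at 334, 321 and 324 FPKM in Control and at 267, 258 and 251 FPKM in YAP-2SA. It was at 259, 284 and 289.6 FPKM in YAP-S127A and at 361, 359.5 and 350.2 FPKM in YAP-S127A,S94A. Here YAP-S127A and YAP-2SA overlapped each other and both lay below Control, with YAP-S127A,S94A above it. S100A4 fell by 0.33 in YAP-2SA (SE 0.05, adjusted p = 0.000401), a mean ratio of 0.792. S100A6, the most abundant of the 10, was at 2515, 2699 and 2413 FPKM in Control and at 1789, 2038 and 1616 FPKM in YAP-2SA. Its YAP-S127A libraries were at 2144, 2299.9 and 2404 FPKM and its YAP-S127A,S94A libraries at 2638, 2848 and 2526 FPKM. All YAP-2SA libraries were below all others, and S100A6 fell by 0.49 (SE 0.10, adjusted p = 0.00189), a mean ratio of 0.714.

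S100A10 and S100A11 are the annexin-binding members. S100A10, which does not need calcium to act and joins annexin A2 in a complex at the plasma membrane, was at 413, 407 and 403 FPKM in Control and at 606, 607 and 593 FPKM in YAP-2SA. Its levels were 460.4, 439 and 412 FPKM in YAP-S127A and 401, 434 and 397 FPKM in YAP-S127A,S94A, both overlapping Control. S100A10 was higher in YAP-2SA by 0.56 (SE 0.05, adjusted p = 1.31e-05), a ratio of 1.48. S100A11, which binds annexins A1 and A6, was at 508, 480.0 and 427 FPKM in Control and at 587, 591 and 569.9 FPKM in YAP-2SA. It was at 502, 482 and 459.8 FPKM in YAP-S127A and at 478, 503 and 442 FPKM in YAP-S127A,S94A. Only the YAP-2SA libraries stood apart, and S100A11 was higher there by 0.31 (SE 0.07, adjusted p = 0.00611), a ratio of 1.24. The annotation holds 8 named S100A11 pseudogenes, and how reads shared with them were divided is not given in the sources used here, so its level is uncertain.

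S100A16, a widely expressed member, had the largest rise of the 10 in YAP-2SA against Control. It was at 117, 139 and 132 FPKM in Control and at 279, 303 and 252 FPKM in YAP-2SA. Its levels were 139, 139 and 159 FPKM in YAP-S127A and 147, 135 and 135 FPKM in YAP-S127A,S94A. The YAP-2SA libraries were thus all above 250 FPKM and the other 9 all below 160. S100A16 was higher in YAP-2SA by 1.10 (SE 0.09, adjusted p = 2.65e-06), a ratio of 2.16. Its 2 promoters hold the GGAATG letters shown above, as do 14% of all promoters searched, and a part of these letters in the rise was not tested. S100A2, known from basal epithelial cells, was at 28.5, 31.6 and 20.6 FPKM in Control and at 42.8, 40.8 and 39.1 FPKM in YAP-2SA. It was at 29.4, 30.9 and 38.9 FPKM in YAP-S127A and at 25.4, 33.9 and 25.1 FPKM in YAP-S127A,S94A. S100A2 was higher in YAP-2SA by 0.61 (SE 0.16, adjusted p = 0.0129), a ratio of 1.52, and by 0.43 (adjusted p = 0.0437) without Control replicate 3, its lowest library. S100A3, known from the hair cuticle, was the only member of the 10 not called in this comparison. Its Control libraries were at 27.4, 31.5 and 23.7 FPKM and its YAP-2SA libraries at 34.1, 24.7 and 24.8 FPKM, which overlapped. It was at 22.9, 19.6 and 27.7 FPKM in YAP-S127A and at 30.5, 29.9 and 28.0 FPKM in YAP-S127A,S94A. The log2 difference was 0.01 with a 95% interval from −0.33 to 0.35 (adjusted p = 0.972), so a change within that interval remains possible. S100A3 lies within the span of S100A4 on the same strand without shared exonic bases.

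**Figure D2:**
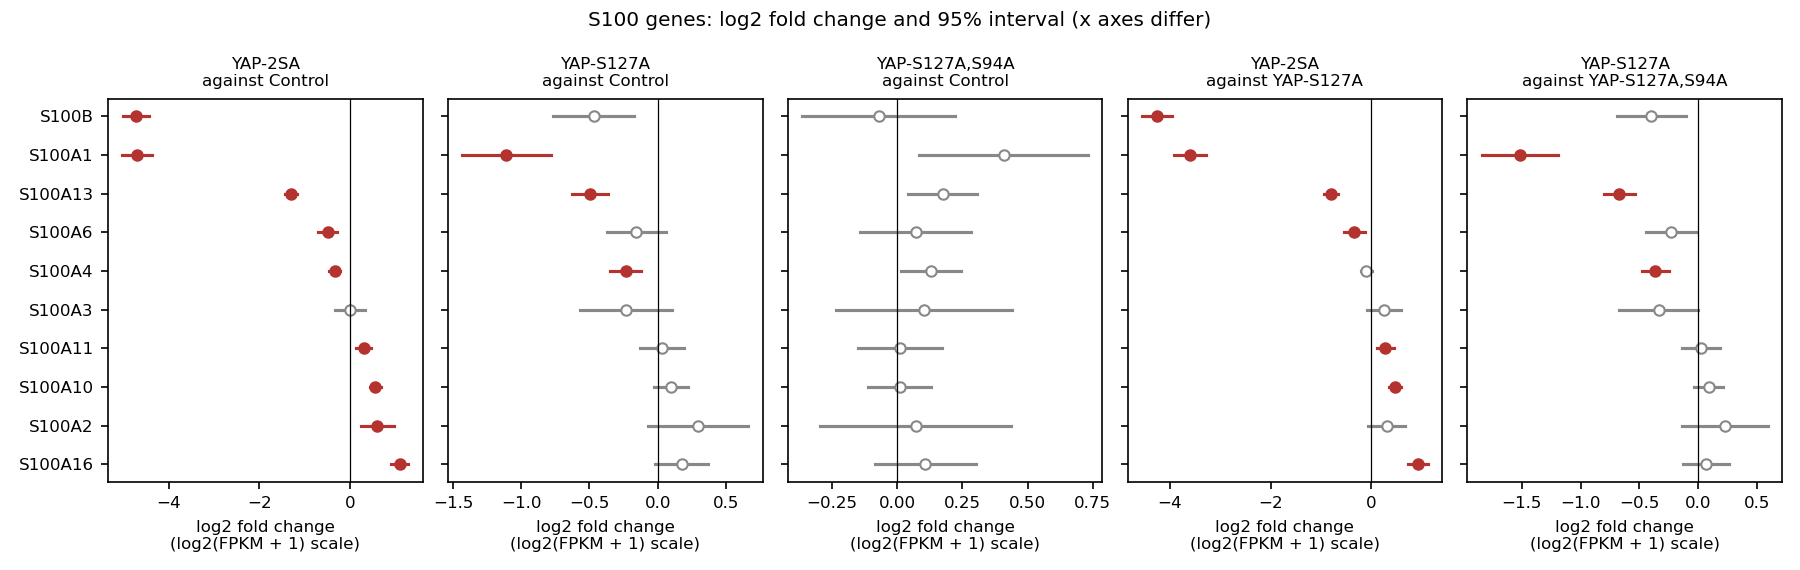
Log2 fold change of the 10 S100 genes on the log2(FPKM + 1) scale in the 5 comparisons, with 95% intervals from limma; filled points passed an adjusted p under 0.05 and open points did not, and the x axes differ between panels. S100A1 lies lowest or next to lowest in the 4 comparisons that set a TEAD-binding YAP mutant as the first group, and no point is filled in YAP-S127A,S94A against Control.

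In YAP-S127A against Control, 3 of the 10 genes were called, all lower, where 1.75% of all tested loci were called lower and 4.56% higher. These comparisons share the Control libraries with those above. S100A1 fell by 1.11 (SE 0.15, adjusted p = 0.00104), a 2.18-fold lower mean, and was the only one past a ratio of 2. S100A13 fell by 0.50 (SE 0.06, adjusted p = 0.000614), a ratio of 0.708. S100A4 fell by 0.24 (SE 0.05, adjusted p = 0.0226), a ratio of 0.850. The S100A4 call was lost when Control replicate 1, 2 or 3 or YAP-S127A replicate 1 was left out, with adjusted p-values of 0.0692, 0.0550, 0.0586 and 0.0733, and when only the libraries of both groups entered the fit (0.170). S100B differed by −0.47 (95% interval −0.76 to −0.18, adjusted p = 0.0690) with libraries that did not overlap Control, and passed at −0.61 (adjusted p = 0.0140) without YAP-S127A replicate 2, its highest. S100A6 and S100A16 also did not overlap Control but missed the threshold, at −0.16 (−0.37 to 0.06, adjusted p = 0.422) and 0.18 (−0.02 to 0.37, adjusted p = 0.307). The median absolute log2 fold change of the 10 was 0.23 and that of all tested loci 0.12.

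In YAP-S127A,S94A against Control, limma called 0 of the 10, where 0.0864% of loci were called higher and 0.093% lower. At an unadjusted p under 0.05 there were 3 genes, all with higher values in the mutant and all without overlap: S100A1 at 0.41 (95% interval 0.08 to 0.73, adjusted p = 0.941), S100A13 at 0.17 (0.04 to 0.31, adjusted p = 0.890) and S100A4 at 0.13 (0.01 to 0.24, adjusted p = 1). How many of all tested loci reached that unadjusted level was not counted, so these 3 values are not read as changes. The other 7 genes differed by −0.07 to 0.11, and the widest of their intervals, that of S100A2, ran from −0.30 to 0.44. For 4 of them, S100A2, S100A10, S100A11 and S100B, the sign turned under at least 1 alternative.

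In YAP-2SA against YAP-S127A, which differ in the second LATS site, 7 of the 10 were called, 3 higher and 4 lower, where 18.3% and 14.5% of loci were. YAP1 RNA did not overlap between these groups either, at 129.7 to 149 FPKM in YAP-2SA and 158.6 to 187 FPKM in YAP-S127A. The part of the YAP1 level in these differences was not tested. S100B fell by 4.26 (SE 0.13, adjusted p = 5.98e-09), a 41.8-fold lower mean, and S100A1 fell by 3.60 (SE 0.15, adjusted p = 3.35e-08), a 15.9-fold lower mean. S100A13 fell by 0.80 (SE 0.06, adjusted p = 2.96e-06). Of the genes that rose, S100A16 was higher by 0.92 (SE 0.09, adjusted p = 1.76e-05), S100A10 by 0.46 (SE 0.05, adjusted p = 9.44e-05) and S100A11 by 0.28 (SE 0.07, adjusted p = 0.0146). The S100A11 call was lost under quantile normalization (adjusted p = 0.130). S100A6 fell by 0.34 (SE 0.10, adjusted p = 0.0214), a call lost without YAP-S127A replicate 2 or 3 (adjusted p = 0.0550 and 0.0643), without YAP-2SA replicate 1 or 3 (0.0604 and 0.0861), with no filter on low values (0.0539) and with only the libraries of both groups (0.0698). The values of S100A2, S100A3 and S100A4 were 0.31 (95% interval −0.06 to 0.67), 0.24 (−0.10 to 0.58) and −0.10 (−0.21 to 0.02) and did not pass, although S100A4 passed at −0.24 (adjusted p = 0.00711) under quantile normalization.

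In YAP-S127A against YAP-S127A,S94A, which differ in TEAD binding, 3 of the 10 were called, all lower in the TEAD-binding form, where 4.31% of loci were called lower and 6.36% higher. S100A1 fell by 1.52 (SE 0.15, adjusted p = 9.90e-05), a 2.88-fold lower mean. S100A13 fell by 0.67 (SE 0.06, adjusted p = 6.13e-05), a ratio of 0.628, and S100A4 fell by 0.36 (SE 0.05, adjusted p = 0.00141), a ratio of 0.777. In S100B, S100A3 and S100A6 the libraries did not overlap either, with differences of −0.40 (95% interval −0.69 to −0.10, adjusted p = 0.0865), −0.33 (adjusted p = 0.206) and −0.23 (−0.44 to −0.01, adjusted p = 0.176). S100B passed at −0.54 (adjusted p = 0.0189) without YAP-S127A replicate 2. The 4 genes called higher in YAP-2SA against Control had values of 0.02 to 0.23 here and did not pass.

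On chromosome 1 the 9 members lie within 1649.1 kb, S100A10 and S100A11 at one end and the other 7 in a cluster of 97.4 kb. In genomic order in that cluster, S100A6 and S100A4 were called lower, S100A3 was not called, S100A2 and S100A16 were called higher, and S100A13 and S100A1 were called lower in YAP-2SA against Control. On GRCh37, S100A6 (153507075-153508720), S100A4 (153516089-153522612) and S100A3 (153519805-153521734) are followed by S100A2 (153533584-153540366) and S100A16 (153579362-153585621), all on the minus strand, and then by S100A13 (153591263-153603836, minus) and S100A1 (153600402-153604515, plus). S100A10 (151955391-151966335) and S100A11 (152004982-152020383) are on the minus strand too, and S100B is at 48018517-48025121 on chromosome 21, minus strand. Of 69 other genes between the outermost members that are not S100 or small RNA genes, 45 were in the table and 4 loci were tested. In YAP-2SA against Control none of these 4 was called higher and 3 were called lower, where 22.9% and 19.5% of all tested loci were. The 3 lower loci were all SPRR2 genes, which encode near-identical proteins of the epidermal cell envelope, so their separate values are uncertain. SPRR2D was at 15.4 to 18.3 FPKM in Control and at 0, 0.393 and 0.287 FPKM in YAP-2SA (log2 fold change −3.85, adjusted p = 6.44e-06). FLG, which encodes filaggrin, differed by 0.07 (adjusted p = 0.585). The plot along the chromosome shows these positions beside the fold changes.

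**Figure D3:**
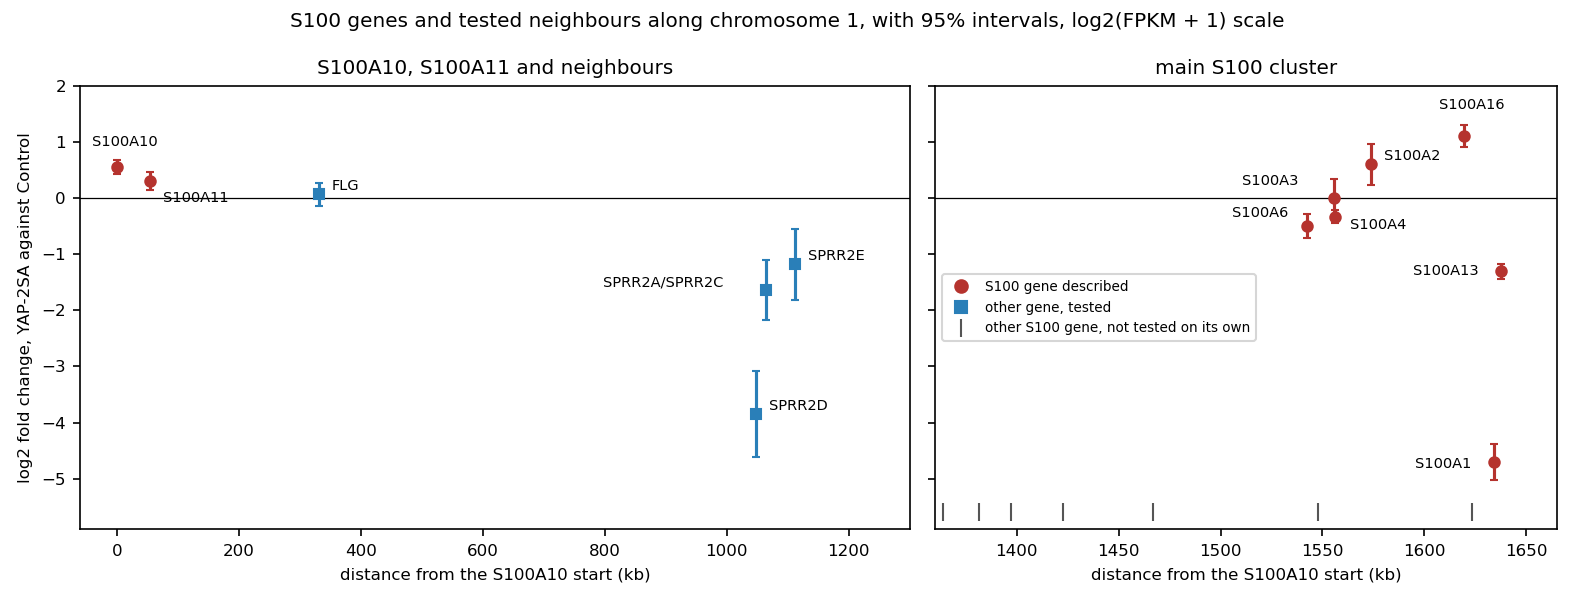
Log2 fold change in YAP-2SA against Control on the log2(FPKM + 1) scale, with 95% intervals, against distance in kb from the S100A10 start along chromosome 1; circles are the 9 S100 genes described, squares the 4 other tested loci and ticks other S100 genes without a test of their own. In the cluster on the right, S100A2 and S100A16 lie above 0 between S100A6 and S100A4 on one side and S100A13 and S100A1 on the other, all 4 of which lie below 0.

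Binding partners of S100A4, S100A6, S100A10, S100A11, S100A13 and S100B were read from a list of 16 genes, all of which were tested. The list also held AGER and TLR4 as receptors of S100 proteins in general. S100A1, S100A2, S100A3 and S100A16 had no partner of their own on it. In YAP-2SA against Control 9 were called higher, 4 lower and 3 were not called, with a median log2 fold change of 0.21 against 0.01 for all loci, of which 22.9% were called higher and 19.5% lower. ANXA2, which encodes the annexin bound by S100A10, was at 264, 283 and 248 FPKM in Control and at 627, 657 and 624 FPKM in YAP-2SA (1.26, adjusted p = 4.52e-07). AHNAK, a large scaffold protein that binds the S100A10 and annexin A2 complex, was at 34.3, 29.1 and 40.9 FPKM in Control and at 101, 101 and 107 FPKM in YAP-2SA (1.55, adjusted p = 2.52e-06). S100A10 and both its partners were therefore higher in YAP-2SA, by 1.48-fold, 2.40-fold and 2.96-fold in mean FPKM. ANXA6, a partner of S100A11, was at 28.9, 26.6 and 28.3 FPKM in Control and at 80.1, 85.2 and 79.6 FPKM in YAP-2SA (1.51, adjusted p = 1.98e-08). ANXA1, the other S100A11 partner, differed by −0.13 (95% interval −0.28 to 0.03, adjusted p = 0.169).

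Partners of members that fell moved in both directions. FGF1, a cargo of S100A13, was at 1.31, 1.80 and 1.84 FPKM in Control and at 0.468, 0.530 and 0.408 FPKM in YAP-2SA (−0.85, adjusted p = 6.77e-05). The mean FPKM of FGF1 was 3.52-fold lower. IL1A, another cargo, was at 1.07, 1.64 and 0.927 FPKM in Control and at 0.123, 0.0461 and 0.0622 FPKM in YAP-2SA (−1.02, adjusted p = 9.60e-05). The mean FPKM of IL1A was 15.7-fold lower. The RNA of S100A13 and of these 2 cargo genes was therefore lower in YAP-2SA, although both cargo genes were low in every group. SYT1, the third S100A13 partner, differed by 0.08 (adjusted p = 0.604). MYH9, the myosin heavy chain bound by S100A4, rose by contrast from 47.8, 37.9 and 44.6 FPKM to 87.0, 90.1 and 89.2 FPKM (1.02, adjusted p = 4.12e-06). PPFIBP1, the liprin bound by S100A4, was lower, at −0.46 (adjusted p = 0.0102). Its value is that of a locus that also lists REP15 and AK000807, so the level of PPFIBP1 alone is uncertain. CACYBP and SUGT1, the partners of S100A6, were higher by 0.21 and 0.24 (adjusted p = 0.00703 and 0.0279), and ANXA11 differed by 0.21 (adjusted p = 0.0502). The S100B partners STK38 and CAPZA1 were higher by 0.59 and 0.16 (adjusted p = 0.00161 and 0.0424). Of the receptors, AGER was higher by 0.55 (adjusted p = 0.00472) at 1.40 to 2.76 FPKM in these libraries, and TLR4 fell from 19.9 to 27.4 FPKM in Control to 6.81 to 6.94 FPKM in YAP-2SA (−1.61, adjusted p = 5.43e-06). In YAP-S127A against Control 4 of the 16 were higher (ANXA2, AHNAK, ANXA6 and MYH9) and 2 lower (FGF1 and TLR4), compared with 4.56% and 1.75% of all loci. In YAP-S127A,S94A against Control limma called 0 of the 16, and 0 had an unadjusted p under 0.05. YAP-2SA against YAP-S127A gave 8 higher and 3 lower, where 18.3% and 14.5% of all loci were called, and YAP-S127A against YAP-S127A,S94A gave 4 higher and 3 lower, where 6.36% and 4.31% were.

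**Figure D4:**
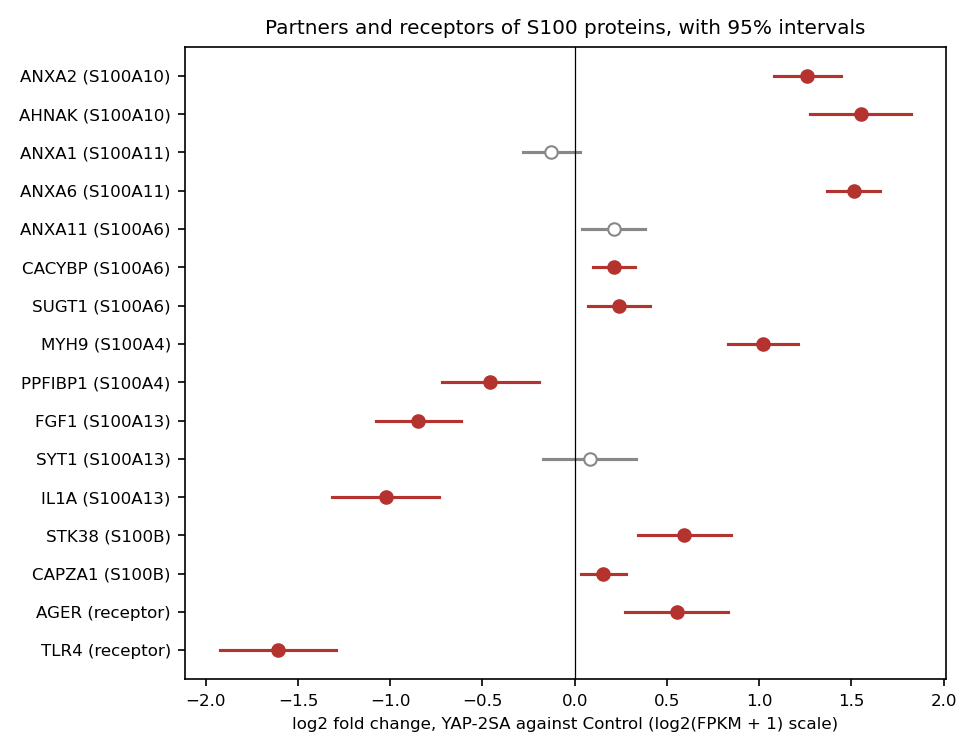
Log2 fold change in YAP-2SA against Control on the log2(FPKM + 1) scale, with 95% intervals from limma, of 16 binding partners and receptors, each with the S100 protein it binds; filled points passed an adjusted p under 0.05. AHNAK, ANXA6, ANXA2 and MYH9 lie highest and TLR4 lowest.

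The other 11 S100 genes of the family were low, listed at 0 or without a value of their own. S100A7, S100A7A, S100A7L2, S100A8, S100A12 and S100G were listed at 0 in all 12 libraries, and S100A9 in all but 1. S100A14 and S100Z stayed below 0.6 FPKM and were not tested, and S100A5 shares the S100A4 locus. S100P was at 1.35, 1.10 and 1.45 FPKM in Control and at 0.218, 0.614 and 0.551 FPKM in YAP-2SA, which did not overlap. S100P fell by 0.66 (SE 0.22, adjusted p = 0.0358), a 2.82-fold lower mean.

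For each called gene, the loci whose levels ran most alike were found by Pearson's r over the 12 libraries, a description with no test, since the groups and not the libraries set most of it. S100B ran most like UGT8 (r = 0.999), which encodes an enzyme of myelin lipid synthesis, and S100A1 like IL13RA2 (r = 0.998). Pearson's r does not measure the size of a change. From Control to YAP-2SA, UGT8 fell from a mean of 8.96 to 2.97 FPKM and IL13RA2 from 344 to 65.5 FPKM. Both falls were smaller in ratio than those of S100B and S100A1. S100A13 was most like IGFBP3 (r = 0.996), which fell from 47.3 to 8.81 FPKM in the mean of YAP-2SA. S100A6 was most like BACE2 (r = 0.980) and S100A4 like IL27RA (r = 0.965). Among the genes called higher, S100A10 ran most like SPIN1 (r = 0.993), S100A16 like LLGL2 (r = 0.988), S100A11 like RRM1 (r = 0.974) and S100A2 like POLR2L (r = 0.956).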

How the data were processed

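RNA of A375 cells was measured in 4 groups of 3 libraries. The authors aligned reads to hg19 (GRCh37) with the UCSC known genes and assembled transcripts, and the submitters' processing notes name bcl2fastq 2.15.0, Bowtie2 2.0.0, TopHat2 2.0.4 and Cufflinks 2.0.2. The authors deposited log2(FPKM + 1) per locus and library, with no counts, so depth is unknown and precision rests on the spread of 3 libraries. Of 31588 entries 3 identical ones were removed. A count test could not be used. The deposited log2 values of the 12 libraries entered a single fit in limma (version 3.58.1, R 4.3.3) with a mean for each group and a trend of variance with level, from which 5 comparisons were drawn. P-values were adjusted by Benjamini-Hochberg over the 15055 loci that reached an FPKM of 1 in 3 or more libraries. The procedure was tested on simulated data. Figures used Python 3.11.15 and matplotlib 3.10.9.

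The genes named were the 10 members, each from the entry holding its symbol (the highest mean where several), YAP1, CTGF, the partner, marker, other S100 and neighbour lists, and the loci most alike by Pearson's r. Some items of these lists are not reported here. The members and lists were chosen with earlier results of these data known. Positions and exons come from GENCODE on GRCh37. Of single genes, only the 10 members were read under the alternatives listed next. Alternatives were a pseudocount of 0.1, an FPKM minimum of 0.1, no filter, median-ratio scaling, quantile normalization, no intensity trend, only the libraries compared, annotated loci only, the replicate number as a block, an adjusted p under 0.01, a ratio over 2 and each library left out in turn.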

Additional observations from a re-analysis of the deposited data

How the results depend on the processing

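With a ratio over 2 also required, the called genes numbered 4 in YAP-2SA against Control, 1 in YAP-S127A against Control, 2 in YAP-2SA against YAP-S127A and 1 in YAP-S127A against YAP-S127A,S94A, compared with 9, 3, 7 and 3 without it. In the other alternatives each count stayed within 1.5 times its value. Of 1050 single values recomputed, 1021 kept their direction and side of the threshold, 12 lost a call, 3 gained one and 14 changed sign. The 9 calls in YAP-2SA against Control held in every alternative that used an adjusted p under 0.05, and with a pseudocount of 0.1 S100A1 was at −5.08 and S100B at −5.71.

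The values that changed sign were not called in any setting. S100A3 in YAP-2SA against Control was −0.011 under median-ratio scaling, −0.039 under quantile normalization and between −0.14 and 0.11 with 1 library left out. S100A10 in YAP-S127A,S94A against Control was −0.0082 under quantile normalization and between −0.032 and 0.033 with 1 library left out. In that comparison S100A2 ranged from −0.10 to 0.19, S100A11 from −0.060 to 0.065 and S100B from −0.16 to 0.0012 with 1 library left out. S100A11 ranged from −0.038 to 0.087 in YAP-S127A against Control and from −0.028 to 0.065 in YAP-S127A against YAP-S127A,S94A. The cause was not tested. Same-numbered libraries of different groups had residual correlations of −0.149 to 0.163, with 2 of 15 above 0.1. In 14 of 30 combinations of a library and another group the highest correlation was with the same number. The number to be met without pairing was not computed, so these values do not decide whether the libraries were paired. The main fit did not take the numbers as pairs. With the replicate block the counts were 9, 3, 0, 7 and 3, and no call of the 10 genes changed. Unknown depth and 3 libraries per group limit the detection of small differences, above all for S100A2 and S100A3.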
